A study of Mus musculus with 12 samples.

Results

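The Hedgehog pathway genes described here are 9 genes that receive, transmit or restrain the signal: the receptor Ptch1, the co-receptors Gas1 and Boc, the ligand-binding inhibitor Hhip, the signal transducer Smo, the GLI inhibitor Sufu, and the transcription factors Gli1, Gli2 and Gli3. They were chosen by name from the deposited expression tables, which hold 24279 genes. All 9 were in the tables, and all 9 were among the 15186 genes with enough counts to test. Polyadenylated RNA had been sequenced from primary mouse embryonic fibroblasts taken at embryonic day 12.5, in 4 groups of 3 libraries. The groups were fortified Rsg1L3P/L3P cells, fortified wt cells, moderate Rsg1L3P/L3P cells and moderate wt cells, called mutant and wild type below. Fortified means F3 mice on 10 ppm dietary folic acid and culture medium with 3600 ng/mL, and moderate means 2 ppm in the diet and 225 ng/mL in the medium. Because each diet went with its own medium, the effects of diet and medium cannot be told apart, and the 2 genotypes had the same pair of conditions. Nothing in the labels states that replicate libraries stem from different embryos or litters, so p values measure the spread between libraries, which may be technical in part.

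Without ligand, PTCH1 keeps SMO inactive, and SUFU together with proteolytic processing holds GLI2 and GLI3 in check, GLI3 mainly as a repressor. When a Hedgehog ligand binds PTCH1, helped by co-receptors such as GAS1 and BOC, SMO collects in the primary cilium and GLI activators switch on target genes, among them Gli1, Ptch1 and Hhip. Rsg1 encodes a small GTPase of the CPLANE complex, which takes part in building that cilium, so the same organelle links the mutated gene to this pathway.

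Of these target genes, Hhip passed the test between folic acid levels and Ptch1 did not pass it, so the stretches upstream of these 2 genes are shown. Both run 5′ to 3′ on the gene's minus strand, from RefSeq on GRCm38.p6, over the bases just before the annotated start. The Ptch1 stretch lies before the start of 1 of its protein-coding transcripts and inside the gene as annotated, since other transcripts begin further upstream. The Hhip stretch is chr8:80058009-80058258 and the Ptch1 stretch is chr13:63565736-63565985. Neither holds capitals, because no match to the searched motif was found.
Hhip: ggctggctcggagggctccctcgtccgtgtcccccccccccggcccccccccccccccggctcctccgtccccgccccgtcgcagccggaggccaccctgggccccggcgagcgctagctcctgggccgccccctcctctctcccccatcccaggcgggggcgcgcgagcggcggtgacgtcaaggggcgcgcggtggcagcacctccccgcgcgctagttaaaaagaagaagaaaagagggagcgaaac
Ptch1: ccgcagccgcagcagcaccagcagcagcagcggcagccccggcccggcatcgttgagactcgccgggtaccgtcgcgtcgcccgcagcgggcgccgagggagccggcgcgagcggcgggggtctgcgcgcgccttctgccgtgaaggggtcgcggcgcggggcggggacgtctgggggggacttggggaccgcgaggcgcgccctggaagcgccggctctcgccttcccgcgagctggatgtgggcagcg
The motif searched was GACCACCCA, the 9-letter GLI binding motif, on both strands, in windows of 250 bases before and 50 bases after the start. RefSeq had a window for 7 of the 9 genes. None of the 7 windows held the full motif or a match at 8 of 9 letters, against 0.253% and 6.74% of all 32851 windows in the table. The absence says only that these letters are not in these windows.

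Across libraries, total estimated counts ran from 39339190 to 48475963. Rsg1 itself was at 0.669 to 1.12 CPM (counts per 1000000, scaled between libraries) in the 6 mutant libraries and 0.488 to 1.03 CPM in the 6 wild type libraries. The sources used here do not say that the allele lowers its transcript, so this level does not check the genotype labels. The summed level of 9 fibroblast markers ran from 8353 to 31856 CPM, with none of the markers at 0. The first principal component, with 30.2% of the variance, placed fortified mutant 2, fortified mutant 3 and moderate wild type 1 at its high end (48.1 to 68.0), with the other 9 libraries from -68.6 to 4.74. At its low end lay moderate wild type 2 and 3 (-68.6 and -53.7), so the moderate wild type group spanned the whole component. The 3 libraries at the high end also had the highest summed levels of 10 skeletal muscle markers (1817 to 2542 CPM, against 515 to 1617 CPM in the other libraries) and of 10 neuron markers (320 to 536 CPM, against 147 to 234 CPM). Xist had 19961 to 35672 counts in the mutant libraries and 33346 and 40641 counts in fortified wild type 1 and moderate wild type 1, against 1 to 9 counts in the other 4 wild type libraries. No mutant library was among the low ones, so Xist level was largely confounded with genotype. Mutant over wild type differences below cannot be fully told apart from differences that go with Xist. Results below are given also without these 3 high-end libraries where that changes a call. That fit leaves the fortified mutant group with 1 library, which is assumed to vary like the other groups, so its averaged and mutant values have no replicate check of their own.

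In mm10 with the GENCODE M21 annotation all 9 are protein-coding genes. On the minus strand lie Hhip (ENSMUSG00000064325.4, chr8:79965851-80058006), Ptch1 (ENSMUSG00000021466.12, chr13:63508328-63573598), Gas1 (ENSMUSG00000052957.8, chr13:60174405-60177365), Boc (ENSMUSG00000022687.12, chr16:44485049-44558897), Gli1 (ENSMUSG00000025407.7, chr10:127329882-127341974) and Gli2 (ENSMUSG00000048402.14, chr1:118834132-119053619). On the plus strand lie Smo (ENSMUSG00000001761.7, chr6:29735503-29761365), Sufu (ENSMUSG00000025231.17, chr19:46396896-46488804) and Gli3 (ENSMUSG00000021318.15, chr13:15463235-15730026).

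Per transcript length, the co-receptor Gas1, Smo and the co-receptor Boc were the most abundant of the 9 transcripts and Gli1 the least. The order of mean TPM (transcripts per 1000000, a length-scaled level) over 12 libraries was Gas1 at 137, Smo at 66.7, Boc at 47.1, Gli3 at 26.2, Sufu at 19.5, Gli2 at 18.2, Ptch1 at 7.57, Hhip at 5.26 and Gli1 at 1.40. Boc lay above Gli3, Gli3 above Sufu, and Gli2 above Ptch1 in 12 of 12 libraries. Gas1 lay above Smo and Smo above Boc in 11 libraries each. Sufu and Gli2 did not differ beyond their spread, since Sufu was the higher in 9 libraries. Ptch1 lay above Hhip, and Hhip above Gli1, in 10 libraries each. Between the lowest and the highest library Gli1 varied 9.88-fold in CPM, Gas1 6.16-fold and Hhip 5.29-fold, while Sufu varied 1.52-fold.

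**Figure D1:**
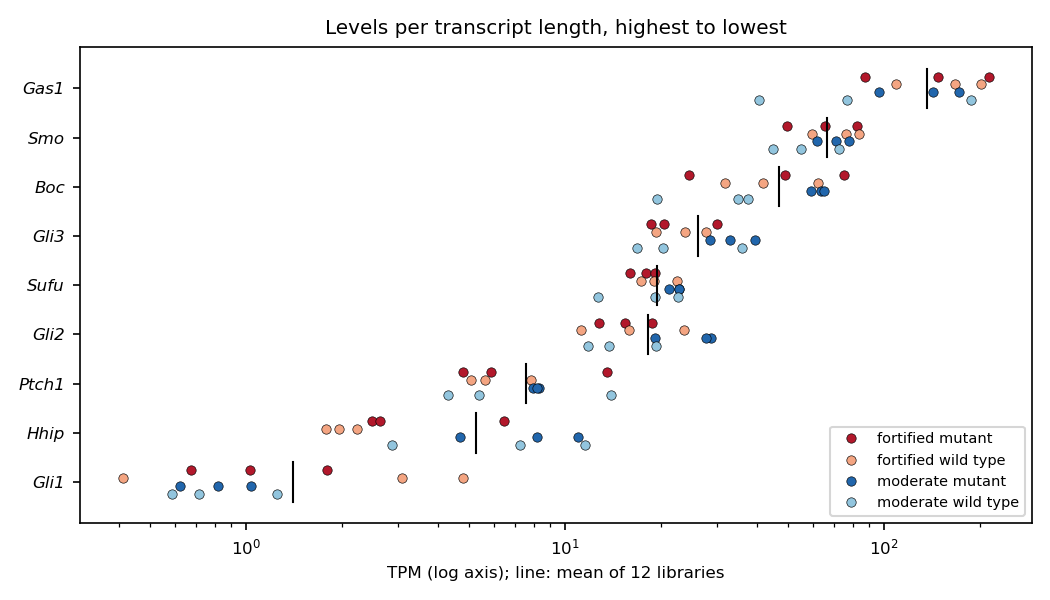
Level of each of the 9 Hedgehog pathway genes in TPM on a log axis, 1 point per library coloured by group, with a black line at the mean of 12 libraries. Mean levels run from 137 TPM for Gas1 to 1.40 TPM for Gli1, and the points of Sufu and Gli2 lie in the same range.

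**Figure D2:**
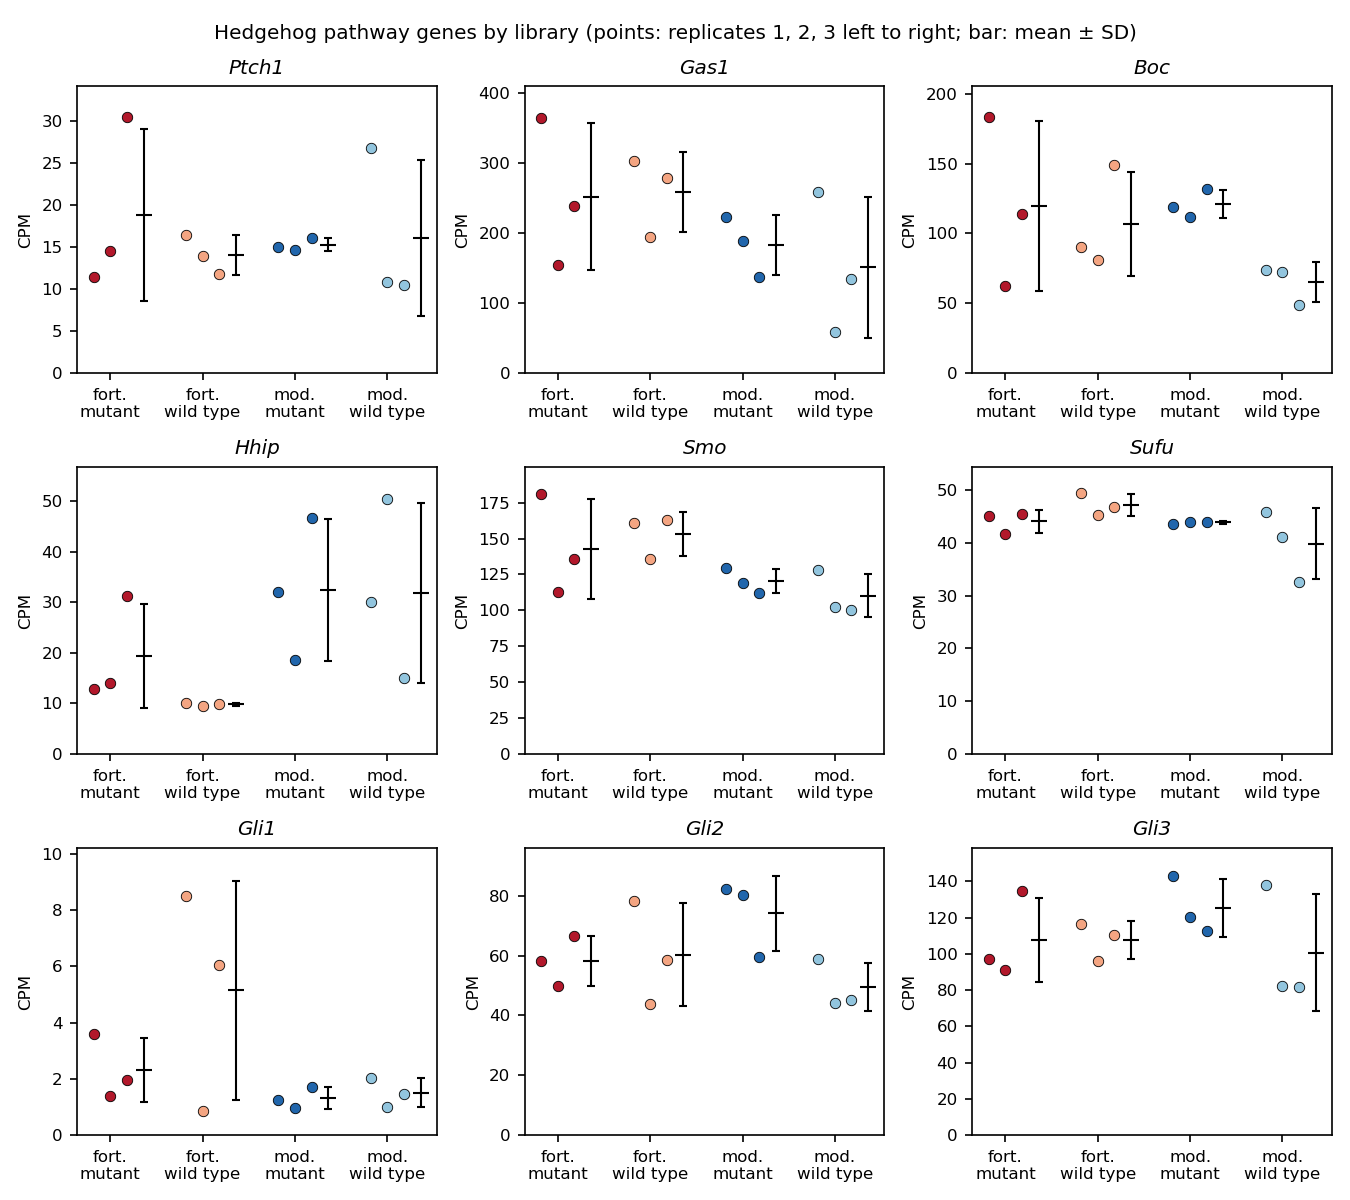
CPM of each of the 9 genes in the fortified mutant, fortified wild type, moderate mutant and moderate wild type libraries. Points are replicates 1, 2 and 3 from left to right, and bars are the mean with SD of 3 libraries. The 3 fortified wild type points of Hhip lie between 9.54 and 10.1 CPM, below all other groups.

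HHIP sits on the cell surface, binds Hedgehog ligands and so limits the signal. Its transcript was lower in fortified than in moderate cells, and it was the 1 gene of the 9 to pass the test. Fortified mutant libraries had 12.8, 14.0 and 31.2 CPM, and fortified wild type libraries 10.1, 9.54 and 9.82 CPM. Moderate mutant libraries had 31.9, 18.5 and 46.6 CPM, and moderate wild type libraries 30.0, 50.4 and 15.1 CPM. All 3 fortified wild type libraries were low and close together, whereas the other groups spread widely, and fortified mutant 3 lay at the level of the moderate cells. Averaged over genotypes, Hhip fell by 1.22 on the log2 scale (SE 0.33) in fortified cells, with an adjusted p of 0.0268 by edgeR's quasi-likelihood test with Benjamini-Hochberg adjustment. In that comparison 17.8% of all genes tested passed, so 1 of the 9 genes is not a high share. The 6 fortified and 6 moderate libraries overlapped for Hhip, as for each of the other 8 genes, while 6.37% of all genes did not overlap. In bulk RNA, fewer cells that express a gene and less RNA per cell cannot be told apart.

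Within genotypes the same difference did not pass. In wild type cells the log2 fold change of Hhip was -1.70 (SE 0.47, adjusted p = 0.101 by edgeR), the fortified libraries all lay below the moderate ones, and DESeq2 gave an adjusted p of 0.00901. In mutant cells it was -0.74 (SE 0.46, adjusted p = 0.338 by edgeR), with overlapping groups, and ran from -1.29 without fortified mutant 3 to -0.39 without moderate mutant 3. The test of the difference between the genotypes gave a log2 difference of 0.96 (SE 0.65, adjusted p = 0.727 by edgeR), so a different response in mutant cells was not shown. The averaged call passed with each of the other tools, scalings and filters and with Xist as a covariate, with adjusted p values from 0.00203 by DESeq2 to 0.0402 by limma-voom. Without the 3 high-end libraries the log2 fold change was -1.56 (adjusted p = 0.0275 by edgeR), with fortified mutant 1 as the only library of its group and the high fortified mutant 3 removed. The call was lost when any of 7 single libraries was left out. By edgeR the adjusted p was then 0.0722 without moderate mutant 3, 0.0561 without moderate wild type 2, 0.0593 without fortified mutant 1 and 0.0586 without fortified mutant 2. It was 0.0515 without fortified wild type 1, 0.0527 without fortified wild type 2 and 0.0606 without fortified wild type 3. Over the 12 fits that left out 1 library the log2 fold change stayed between -1.50 and -0.97.

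**Figure D3:**
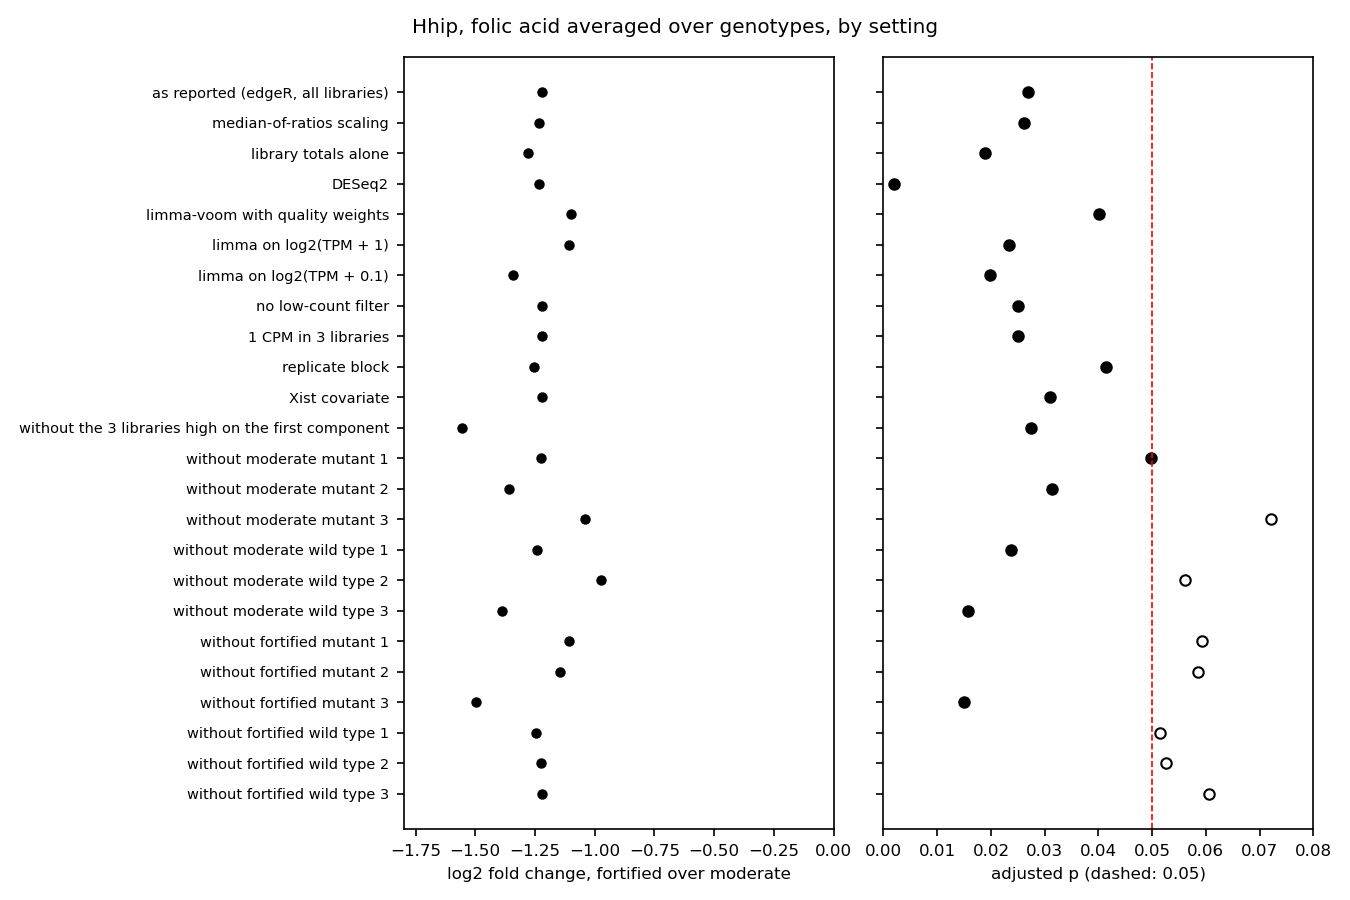
Fitted log2 fold change of Hhip, fortified over moderate and averaged over genotypes (left), and its adjusted p (right), for the reported fit and each alternative. Filled points pass 0.05, marked by the dashed line. Every fold change is negative, and 7 of the 12 fits that leave out 1 library lie past the dashed line.

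GLI1 is a GLI activator whose own gene is a direct target, so its transcript is the usual readout of the pathway. The highest Gli1 levels were in fortified cells, but 1 fortified wild type library had the lowest level of all. Fortified mutant libraries had 3.61, 1.40 and 1.96 CPM, and fortified wild type libraries 8.51, 0.86 and 6.07 CPM. Moderate mutant libraries had 1.25, 0.96 and 1.73 CPM, and moderate wild type libraries 2.03, 1.00 and 1.47 CPM. The fortified wild type values rested on 390, 38 and 278 counts, with exact 95% Poisson intervals of 352 to 431, 26.9 to 52.2 and 246 to 313, so the gap between these replicates is far beyond counting error. Averaged over genotypes, the log2 fold change of Gli1 was 1.30 (SE 0.47, adjusted p = 0.0763 by edgeR) in fortified over moderate cells. DESeq2 gave an adjusted p of 0.0276, and edgeR gave 0.0197 with a log2 fold change of 1.54 when fortified wild type 2 was left out. The call thus depended on the tool and, by edgeR, on that 1 library. Over all 23 alternatives the averaged value ran from 0.52 to 1.74, and it did not pass under most of them. The log2 fold change of Gli1 was 1.77 (SE 0.67, adjusted p = 0.178 by edgeR) in wild type cells and 0.82 (SE 0.66, adjusted p = 0.475 by edgeR) in mutant cells, with overlapping groups in both. The 3′ end of Gli1 shares 62 exonic bases with Arhgap9 on the opposite strand (chr10:127329882-127329943 in mm10), and the sources used here do not say whether counting used strand. Arhgap9 was at 0.11 to 1.36 CPM. A larger overlap of Gli1 is with Gm47200, also on the opposite strand, which spans 9584 of its bases (chr10:127332391-127341974). Their exons overlap there, and Gm47200 is not in the expression tables. Exons of Hhip, Gas1 and Gli3 also overlap annotated genes on the opposite strand (Gm27820, Gm48488 and Gm6556), so reads of the partners could not be told apart without strand.

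GAS1 and BOC help ligands reach PTCH1. Gas1 had 363, 154 and 238 CPM in fortified mutant and 303, 194 and 278 CPM in fortified wild type libraries, against 223, 188 and 137 CPM in moderate mutant and 259, 59.0 and 134 CPM in moderate wild type libraries. Fortified mutant 1 was the highest and moderate wild type 2 the lowest library, and the groups overlapped. The averaged log2 fold change of Gas1 was 0.62 (SE 0.32, adjusted p = 0.194 by edgeR), and in wild type cells it was 0.78 (SE 0.45, adjusted p = 0.357 by edgeR). Without moderate wild type 1 the averaged value was 0.94 (adjusted p = 0.0261 by edgeR). It was 1.20 without the 3 high-end libraries, with 1 fortified mutant library left. Over all 23 alternatives the averaged value of Gas1 ran from 0.43 to 1.20, and it did not pass under most of them. Boc had 184, 62.3 and 114 CPM in fortified mutant and 90.0, 81.1 and 149 CPM in fortified wild type libraries. It had 119, 112 and 132 CPM in moderate mutant and 74.1, 72.6 and 48.6 CPM in moderate wild type libraries. The moderate wild type group was the low one, below every fortified wild type and every moderate mutant library. Neither contrast with that group passed: the log2 fold change of Boc was 0.71 (SE 0.34, adjusted p = 0.278 by edgeR) in fortified over moderate wild type cells. Averaged over genotypes it was 0.35 (SE 0.24, adjusted p = 0.336 by edgeR), and 0.69 without the 3 high-end libraries. The only fortified mutant library left in that fit was the one with the highest Boc. Over all 23 alternatives the averaged value of Boc ran from 0.04 to 0.69, and it did not pass under most of them.

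Smo, the gene of the signal transducer that PTCH1 inhibits, varied little. It had 181, 113 and 136 CPM in fortified mutant and 161, 136 and 163 CPM in fortified wild type libraries, against 130, 119 and 112 CPM in moderate mutant and 128, 103 and 101 CPM in moderate wild type libraries. Every fortified wild type library lay above every moderate wild type one. The log2 fold change of Smo was 0.47 (SE 0.18, adjusted p = 0.178 by edgeR) in wild type cells and 0.36 (SE 0.13, adjusted p = 0.0676 by edgeR) averaged over genotypes. The averaged value passed by DESeq2 (adjusted p = 0.0425), without moderate wild type 1 (0.42, adjusted p = 0.0326 by edgeR) and without fortified mutant 2 (0.42, adjusted p = 0.0477 by edgeR). It was 0.58 without the 3 high-end libraries, with 1 fortified mutant library left. Over all 23 alternatives the averaged value of Smo ran from 0.12 to 0.58, and it did not pass under most of them. Sufu, whose product binds GLI proteins and restrains them, was the steadiest of the 9 transcripts. Its group means were 44.1 ± 2.13 CPM in fortified mutant, 47.1 ± 2.14 CPM in fortified wild type, 43.9 ± 0.25 CPM in moderate mutant and 39.8 ± 6.72 CPM in moderate wild type cells (SD, n = 3 each).

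In wild type cells 0 of the 9 genes passed by edgeR when fortified and moderate cells were compared, against 0.0263% of all genes, and 3 had an unadjusted p under 0.05 (Hhip, Gli1 and Smo), against 19.6% of all genes. DESeq2 called 1 of the 9 (Hhip) and limma-voom 0, against 1197 and 17 of the 15186 genes tested. Groups did not overlap for 3 of the 9 (Hhip lower, Smo and Boc higher in fortified cells), against 20.6% of all genes. Without the 3 high-end libraries, which here removes moderate wild type 1, Smo passed (0.60, adjusted p = 0.0423 by edgeR), as did Gas1 (1.43, adjusted p = 0.0455 by edgeR). In mutant cells 0 of the 9 passed by edgeR, against 6.93% of all genes, and 0 had an unadjusted p under 0.05, against 25.6% of all genes. Groups did not overlap for 0 of the 9 in mutant cells, against 38.2% of all genes. DESeq2 called 0 of the 9 there, and limma-voom 1, Gli2 (-0.51, adjusted p = 0.0324), where edgeR gave -0.35 (SE 0.22, adjusted p = 0.349). Of the 15186 genes tested, DESeq2 called 2414 in mutant cells and limma-voom 5273. DESeq2 gave no adjusted p for 1785 of these genes in mutant cells and for 318 in wild type cells.

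Levels of cell type markers also differed between the folic acid groups. The 9 fibroblast markers summed to 13397 to 20335 CPM in fortified mutant and 23340 to 31856 CPM in fortified wild type libraries, against 12700 to 13788 CPM in moderate mutant and 8353 to 14187 CPM in moderate wild type libraries. Fortified wild type cells, which had the lowest Hhip, thus had the highest fibroblast marker sum. The 10 skeletal muscle markers summed to 616 to 2542 CPM in fortified mutant and 515 to 1231 CPM in fortified wild type libraries, against 1241 to 1617 CPM in moderate mutant and 776 to 2144 CPM in moderate wild type libraries. The 10 neuron markers summed to 147 to 465 CPM in fortified mutant and 183 to 201 CPM in fortified wild type libraries, against 220 to 234 CPM in moderate mutant and 223 to 536 CPM in moderate wild type libraries. In wild type cells 9 of 10 muscle and 9 of 10 neuron markers had a negative log2 fold change in fortified over moderate cells, and 0 passed by edgeR. At an unadjusted p under 0.05 there were 0 muscle markers and 1 neuron marker, but 8 of 9 fibroblast markers, against 19.6% of all genes. Of the fibroblast markers too, 0 passed there by edgeR. Averaged over genotypes, 5 of 9 fibroblast markers passed by edgeR, all higher in fortified cells, against 17.8% of all genes. In that average 0 of 10 muscle markers passed and 1 of 10 neuron markers, which was lower. Of 8 cartilage markers 2 passed higher and 1 lower, and of 4 endothelial markers 1 passed, lower. Among 8 neural progenitor and glia, 5 macrophage and 4 epithelial markers 0 passed. Of 8 mitosis genes 3 passed, all higher. None of the fibroblast, muscle and neuron markers was at 0 in any library. The part of these levels in the results on Hhip, Gas1 and Smo was not tested.

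PTCH1 is both the ligand receptor and a product of a target gene. Its transcript passed no comparison between groups, and 2 libraries set most of its spread. Ptch1 had 11.4, 14.5 and 30.4 CPM in fortified mutant and 16.5, 13.9 and 11.8 CPM in fortified wild type libraries, against 15.1, 14.6 and 16.1 CPM in moderate mutant and 26.7, 10.9 and 10.5 CPM in moderate wild type libraries. Fortified mutant 3 and moderate wild type 1 stood well above the other 10 libraries. The mutant over wild type log2 fold change of Ptch1 in fortified cells was 0.42 (SE 0.40, adjusted p = 0.939 by edgeR), but -0.12 once fortified mutant 3 was left out and -0.31 without the 3 high-end libraries, where 1 fortified mutant library (11.4 CPM) is set against 3 fortified wild type libraries. The same 2 libraries, fortified mutant 3 and moderate wild type 1, had the highest summed level of 8 mitosis genes, at 1557 and 1293 CPM, against 382 to 1070 CPM in the other 10. Among those 10 the ranks often differed. Moderate mutant 1, 2 and 3 ranked 5, 6 and 4 for Ptch1 but 10, 11 and 9 for the mitosis sum. Fortified wild type 2 ranked 8 and 3. Fortified wild type 1 (3 and 4), fortified mutant 2 (7 and 7) and moderate wild type 3 (12 and 12) ranked alike. The 5 genes whose log2 CPM were most like that of Ptch1 over the 12 libraries, among 15177 candidates, were Nucks1 (Pearson r = 0.95), Ticrr (0.94), Usp49 (0.93), E2f7 (0.92) and Drosha (0.91). Ticrr takes part in the start of DNA replication, E2f7 is a cell cycle transcription factor and Drosha cuts primary microRNA transcripts. The 5 most like Gli1 were Slc26a6 (0.90), 9530026P05Rik (0.87), A2m (0.86), 1700084C01Rik (0.85) and Olig2 (0.85), of which 9530026P05Rik, 1700084C01Rik and Olig2 averaged 0.157 to 0.171 CPM. These likenesses describe 12 libraries that differed in depth and in levels of cell type markers and mitosis genes. The part of those differences in the likenesses was not tested.

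No correlation between the target transcripts Gli1, Ptch1 and Hhip passed its test. Over 12 libraries Pearson's r of log2 CPM was 0.044 for Gli1 with Ptch1 (permutation p = 0.903, adjusted over 3 pairs 0.903; Spearman's rho 0.266, p = 0.404). It was -0.442 for Gli1 with Hhip (permutation p = 0.153, adjusted 0.459; rho -0.252, p = 0.431) and 0.321 for Ptch1 with Hhip (permutation p = 0.315, adjusted 0.472; rho 0.224, p = 0.486). These tests were two-sided. Leaving out the 2 libraries farthest from the median of the first gene gave r of 0.238, -0.0067 and 0.0441 for these pairs in the same order. After subtraction of group means r was 0.096 for Gli1 with Ptch1, 0.0017 for Gli1 with Hhip and 0.451 for Ptch1 with Hhip. The negative value of Gli1 with Hhip therefore did not hold within groups. With 1 library left out it ran from -0.656 to -0.306, and without fortified wild type 2 it was -0.656 (permutation p = 0.0285, adjusted 0.0856; rho -0.627, p = 0.0438).

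**Figure D4:**
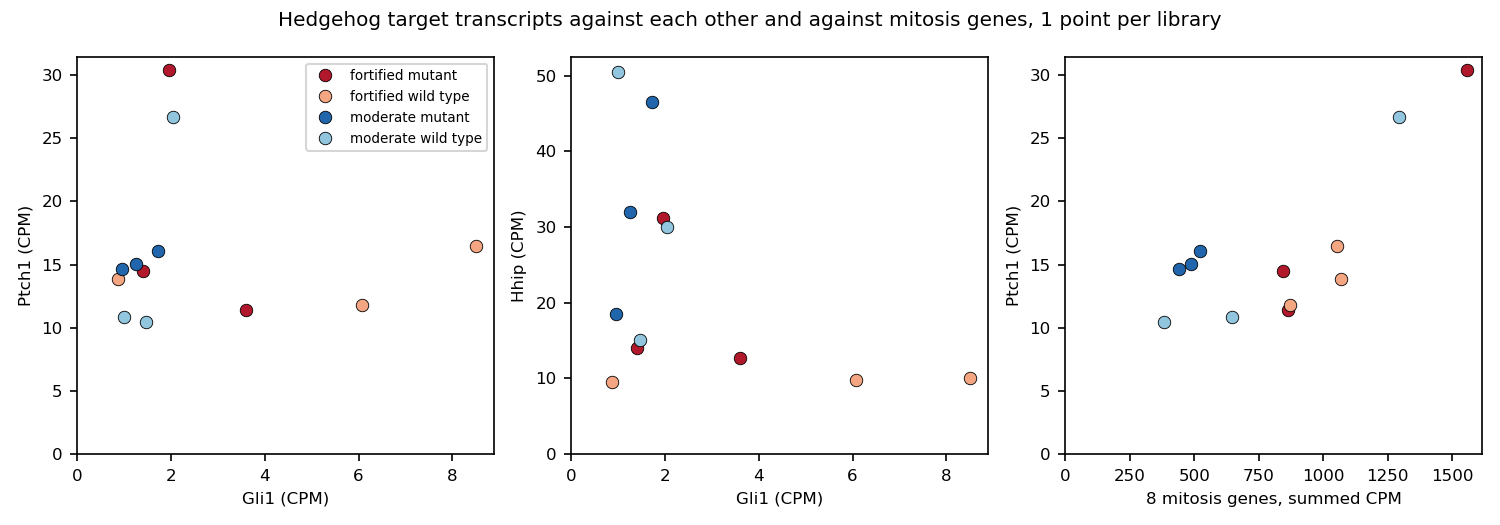
Ptch1 against Gli1 (left), Hhip against Gli1 (middle) and Ptch1 against the summed level of 8 mitosis genes (right), all in CPM, 1 point per library. The libraries with 30.4 and 26.7 CPM of Ptch1 have the highest mitosis sums (1557 and 1293 CPM) and are not the ones with the most Gli1.

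The second question was how the mutation altered these genes. At moderate folic acid Gli2, which encodes the main GLI activator, and Boc had higher values in mutant cells, though neither passed. Gli2 had 82.3, 80.3 and 59.7 CPM in moderate mutant libraries, against 58.8, 44.3 and 45.3 CPM in moderate wild type libraries. Every mutant library lay above every wild type library, by a narrow margin between the lowest mutant and the highest wild type value. The log2 fold change was 0.58 (SE 0.22, adjusted p = 0.605 by edgeR) for Gli2 and 0.89 (SE 0.35, adjusted p = 0.611 by edgeR) for Boc. Gli3, the gene of the main GLI repressor, had 143, 120 and 112 CPM in moderate mutant libraries, against 138, 82.5 and 81.5 CPM in moderate wild type libraries, a log2 fold change of 0.32 (SE 0.22, adjusted p = 0.765 by edgeR). Among moderate wild type libraries, number 1 was the high one for both GLI genes. In fortified cells Gli2 had 58.2, 49.8 and 66.5 CPM in mutant libraries, against 78.4, 44.0 and 58.6 CPM in wild type libraries, and Gli3 had 97.2, 91.3 and 135 CPM in mutant libraries, against 116, 96.0 and 110 CPM in wild type libraries. Both overlapped widely there.

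In moderate cells 0 of the 9 genes passed by edgeR, and 0% of all genes did. Of the 9, 2 had an unadjusted p under 0.05 (Gli2 and Boc), as had 7.87% of all genes, and DESeq2 and limma-voom called 0 of the 9 each. Groups did not overlap for these 2, against 13.0% of all genes. In fortified cells 0 of the 9 passed by edgeR, DESeq2 and limma-voom alike, and 0% of all genes passed by edgeR. At an unadjusted p under 0.05 there were 0 of the 9, against 3.29% of all genes. Groups did not overlap for 1 of the 9, Hhip, against 10.3% of all genes. Its log2 fold change in mutant over wild type cells was 0.98 (SE 0.46, adjusted p = 0.939 by edgeR), from the values given above. Gli1 had a log2 fold change of -1.15 (SE 0.66, adjusted p = 0.939 by edgeR) in fortified mutant over wild type cells, with overlapping groups.

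Averaged over folic acid levels, 0 of the 9 passed by edgeR, DESeq2 and limma-voom, and 0% of all genes passed by edgeR. At an unadjusted p under 0.05 there were 0 of the 9, against 4.64% of all genes. The extremes were Boc at 0.53 (SE 0.24) and Gli1 at -0.67 (SE 0.47), both with an adjusted p of 0.986 by edgeR. No gene of the 9 had groups that did not overlap over all 12 libraries, against 0.0988% of all genes. For the interaction of genotype and folic acid 0 of the 9 passed by edgeR, DESeq2 and limma-voom, and 0% of all genes passed by edgeR. At an unadjusted p under 0.05 there were 0 of the 9, against 6.68% of all genes. The interaction of Gli2 was -0.63 (SE 0.31, adjusted p = 0.708), that of Boc -0.73 (SE 0.49, adjusted p = 0.725) and that of Gli1 -0.95 (SE 0.93, adjusted p = 0.793), all by edgeR. Each is the folic acid log2 fold change in mutant cells minus that in wild type cells. With SEs of this size, differences as large as these estimates could not be told from 0.

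**Figure D5:**
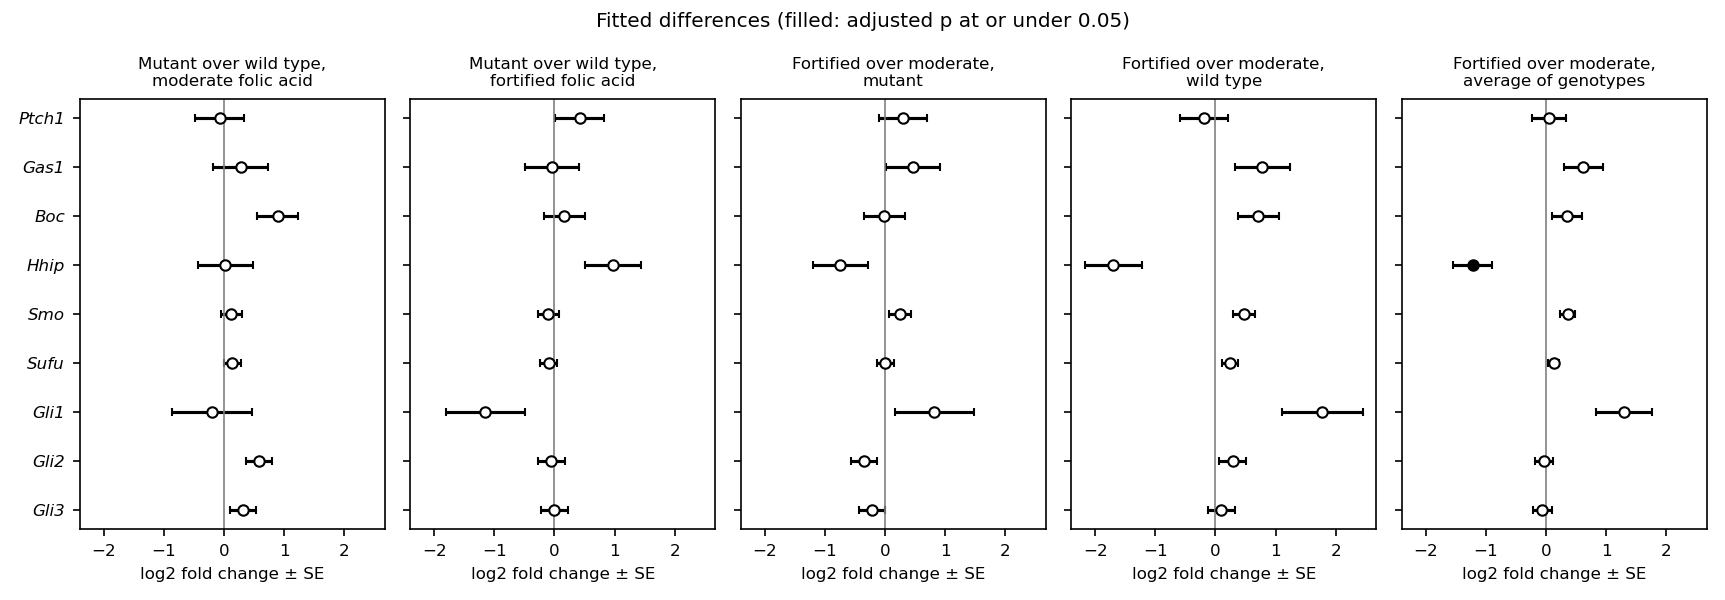
Fitted log2 fold change with SE of each of the 9 genes, for mutant over wild type cells at each folic acid level, fortified over moderate folic acid in each genotype and its average over genotypes. The filled point, with an adjusted p at or under 0.05, is Hhip in the averaged comparison, at -1.22.

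Other genes of the pathway were followed in 4 lists. Of 8 genes of ligands and their release, 0 passed any comparison in the reported edgeR fit. For folic acid 1 of the 8 had an unadjusted p under 0.05 in mutant cells, 4 in wild type cells and 5 in the average, against 25.6%, 19.6% and 33.9% of all genes. DESeq2 called 1, 2 and 3 of the 8, against 2414, 1197 and 3942 of the 15186 genes tested. It gave no adjusted p for 1785, 318 and 23 of these genes in the same order. Without the 3 high-end libraries the edgeR calls of Hhat, Scube1, Scube2 and Shh changed in the average, with 1 fortified mutant library left. The ligand genes themselves were close to the lower end of detection, and were looked at after their values were seen: Shh reached at most 2.24 CPM, Dhh 1.21 CPM and Ihh 0.41 CPM. Scube2, whose product helps release ligands, had 5.20, 5.43 and 6.18 CPM in moderate mutant libraries, against 1.45, 0.28 and 0.92 CPM in moderate wild type libraries. That log2 fold change was 2.65 (SE 0.72), with an adjusted p of 0.588 by edgeR and 0.0318 by DESeq2. Fortified wild type libraries had 5.50, 1.88 and 8.88 CPM of Scube2, a log2 fold change of 2.61 (SE 0.72) over moderate wild type with an adjusted p of 0.102 by edgeR, 0.00549 by DESeq2 and 0.0475 by edgeR without moderate wild type 1. Without the 3 high-end libraries the log2 fold change of Scube2 in wild type cells was 3.17. Moderate wild type was thus the low group for Scube2, as for Boc. Disp1, which exports ligands from producing cells, had 48.3, 42.3 and 44.0 CPM in fortified mutant libraries, against 84.1, 71.7 and 85.2 CPM in moderate mutant libraries. Its log2 fold change was -0.84 (SE 0.24), with an adjusted p of 0.0562 by edgeR and 0.0126 by DESeq2. By edgeR it was 0.0343, 0.0132 and 0.0329 when moderate wild type 1, 2 or 3 was left out.

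Of 13 other receptors and ciliary membrane regulators, 1 rose in fortified cells averaged over genotypes, where 17.8% of all genes passed, and 0 passed any other comparison by edgeR. For folic acid 2 of the 13 had an unadjusted p under 0.05 in mutant cells and 1 in wild type cells, below the shares of all genes. DESeq2 called 0 of the 13 in either genotype. In mutant cells limma-voom called 2 higher and 5 lower, against 5273 of the 15186 genes tested. It called 0 of the 13 in the average. The 1 that rose was Evc, a ciliary partner of SMO, at 31.3 ± 9.33 CPM in fortified mutant and 38.3 ± 2.75 CPM in fortified wild type cells, against 22.9 ± 2.82 CPM in moderate mutant and 24.3 ± 6.25 CPM in moderate wild type cells (SD, n = 3 each). Its log2 fold change was 0.55 (SE 0.17, adjusted p = 0.0458 by edgeR). The call was lost in 10 of the 12 fits that left out 1 library, with adjusted p values by edgeR of 0.0652, 0.0932 and 0.107 without moderate mutant 1, 2 or 3, and 0.0582 and 0.0765 without moderate wild type 2 or 3. They were 0.0999 and 0.0826 without fortified mutant 1 or 3, and 0.0963, 0.0720 and 0.0895 without fortified wild type 1, 2 or 3. By limma-voom the adjusted p was 0.0671, and by limma on log2(TPM + 1) it was 0.328.

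Of 15 genes of GLI kinases, processing and degradation, 2 fell in fortified cells averaged over genotypes by edgeR, and 1 of these also in mutant cells. All genes passed at 17.8% and 6.93% in these comparisons, so the list held no high share. Gsk3b, one of the kinases that phosphorylate GLI proteins before processing, had 150.9 ± 20.5 CPM in fortified mutant and 156 ± 15.1 CPM in fortified wild type cells, against 254 ± 13.4 CPM in moderate mutant and 205 ± 22.6 CPM in moderate wild type cells (SD, n = 3 each). Every fortified library lay below every moderate one. Gsk3b fell by 0.58 on the log2 scale (SE 0.10, adjusted p = 0.00701 by edgeR) averaged over genotypes, and passed under each of 23 alternatives with adjusted p values up to 0.0227. In mutant cells it fell by 0.75 (SE 0.15, adjusted p = 0.0216 by edgeR). That call was lost without moderate mutant 1, 2 or 3 (adjusted p = 0.0773, 0.0949 and 0.0805 by edgeR) and without fortified mutant 1 or 2 (0.0628 and 0.0793). Cul3, the scaffold of a ubiquitin ligase that acts on GLI proteins, had 149 ± 5.34 CPM in fortified mutant and 147 ± 3.30 CPM in fortified wild type cells, against 213 ± 27.0 CPM in moderate mutant and 192 ± 44.8 CPM in moderate wild type cells (SD, n = 3 each). Cul3 fell by 0.45 (SE 0.12, adjusted p = 0.0274 by edgeR) averaged over genotypes. This call was lost without moderate mutant 2 or 3 (adjusted p = 0.0598 and 0.0730 by edgeR), fortified mutant 1 or 2 (0.0529 and 0.0523) or fortified wild type 3 (0.0654). Both proteins also act in many pathways other than Hedgehog.

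Of 15 Hedgehog target genes of mesenchyme, 1 fell in fortified cells by edgeR, averaged over genotypes and in mutant cells, again no high share beside 17.8% and 6.93% of all genes. Grem1, which encodes a secreted BMP antagonist, had 18.01, 11.9 and 9.07 CPM in fortified mutant and 18.4, 21.7 and 13.2 CPM in fortified wild type libraries, against 63.3, 79.6 and 226 CPM in moderate mutant and 17.1, 213 and 197 CPM in moderate wild type libraries. Moderate wild type 1 was the only moderate library at the level of the fortified ones. Grem1 fell by 3.12 on the log2 scale (SE 0.54, adjusted p = 0.00692 by edgeR) averaged over genotypes, and passed under each of 23 alternatives with adjusted p values up to 0.0221. In mutant cells it fell by 3.24 (SE 0.77, adjusted p = 0.0359 by edgeR). That call was lost without moderate mutant 1, 2 or 3 (adjusted p = 0.0788, 0.104 and 0.123 by edgeR), fortified mutant 1, 2 or 3 (0.0753, 0.116 and 0.0874) and fortified wild type 1 or 2 (0.0514 and 0.0504). In wild type cells Grem1 did not pass in the reported edgeR fit, but DESeq2 called it lower in fortified cells. Without the 3 high-end libraries, moderate wild type 1 among them, its edgeR call in wild type cells changed. The interaction of Grem1 did not pass by edgeR, so a different response in mutant cells was not shown. Foxc2, a forkhead factor of mesenchyme, had higher values in mutant cells at both folic acid levels. It was at 37.6 ± 1.26 CPM in fortified mutant and 26.8 ± 7.21 CPM in fortified wild type cells, and at 40.7 ± 5.47 CPM in moderate mutant and 22.6 ± 4.97 CPM in moderate wild type cells (SD, n = 3 each). All 6 mutant libraries lay above all 6 wild type libraries. Of all genes tested, 0.0988% had groups that did not overlap, counting both directions. Foxc2 was named here for its small p in these same data, so its separation adds no independent support. The averaged log2 fold change of Foxc2 was 0.67 (SE 0.15), with an adjusted p of 0.986 by edgeR and 0.0464 by DESeq2.

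For the list medians, the log2 fold changes of fortified over moderate cells averaged over genotypes were 0.12 for the 9 genes, -0.17 for ligands and release, -0.05 for the other receptors, -0.03 for kinases and processing, and 0.04 for the targets. The median of all genes tested was 0.0004. In mutant over wild type cells averaged over folic acid levels the medians were 0.16 for the 9 genes, 0.12 for ligands and release, -0.02 for the other receptors, 0.09 for kinases and processing, and 0.04 for the targets, against -0.02 for all genes tested. In the genotype comparisons and the interaction 0 genes of the 4 lists passed by edgeR. DESeq2 called Scube2 in moderate cells and Foxc2 in the average, and limma-voom called 0. At an unadjusted p under 0.05 by edgeR there were 2, 0, 1 and 3 genes of the 4 lists, in the order above, for mutant over wild type at moderate folic acid. There were 0, 1, 0 and 2 at fortified folic acid, 1, 0, 1 and 3 in the average, and 1, 1, 1 and 0 in the interaction. Of all genes 7.87%, 3.29%, 4.64% and 6.68% were under 0.05 in these 4 comparisons.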

How the data were processed

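Gene tables from salmon were deposited, one in expected counts and one in TPM. The version of salmon and its annotation: not given in the sources used here. The genome is mm10 per the submitters' processing notes. RNA was extracted with trizol and chloroform and made into libraries with the TECAN Universal Plus mRNA-Seq kit, per the labels' protocols. The expected counts deposited by the authors are estimated counts per gene, which were rounded to whole numbers here. The deposited TPM values were used for levels between genes and for 2 alternatives.

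A single model with group means covered the 12 libraries (edgeR 4.0.16, glmQLFit with glmQLFTest, on R 4.3.3). The filter filterByExpr, at a minimum count of 10 and a minimum total of 15, removed 9093 of 24279 genes, and TMM set the scaling. P values were adjusted by Benjamini-Hochberg across the 15186 tested genes of each contrast and called at 0.05. SDs refer to 3 libraries, and SEs belong to fitted log2 fold changes. CPM are counts per 1000000 after scaling, and their log2 was taken with 2 as prior count. Correlations used 100000 resamples. Counting error is small at this depth beside a common biological coefficient of variation of 0.332. The procedure was tested on simulated data.

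The 9 genes and all gene lists were chosen with earlier results of these data known, as was the setting without 3 libraries. Genes named from the 4 other Hedgehog lists were those that passed any of 7 contrasts, filled to 2 a list by smallest p. One gene so chosen is not reported here. The genes most alike were taken by Pearson's r. Alternatives were DESeq2 1.42.0, limma 3.58.1 (voom with quality weights, and log2(TPM + 1) or log2(TPM + 0.1)), other scalings and filters, a replicate block, Xist as a covariate, only the groups compared, and leaving out libraries. Gene positions come from GENCODE M21. Columns were matched to samples by the column numbers that the sample descriptions give.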

Additional observations from a re-analysis of the deposited data

How the results depend on the processing

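Of 63 values (9 genes in 7 contrasts), 0 changed direction with a filter of 1 CPM in 3 libraries, 1 each with DESeq2, median-of-ratios scaling, no low-count filter and a replicate block, and 1 of 36 with only the groups compared. The number was 5 with library totals alone, 7 with each TPM scale, 8 with limma-voom, 10 with Xist as a covariate and 13 without the 3 libraries at the high end of the first component. Leaving out each library in turn changed direction in 48 of 756 values. The cause was not tested. For log2(TPM + 1) the median of all genes moved to -0.226 in mutant cells and -0.150 in the average for fortified over moderate cells, against 0.040 and 0.0004 in the reported fit. Depth did not limit the 9 genes, apart from Gli1 with 38 to 390 counts.

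The averaged folic acid comparison called 1 of the 9 genes as reported, 3 with DESeq2, 2 with a replicate block (Hhip at 0.0415, Smo at 0.0462 as adjusted p), 4 without the 3 libraries and 0 to 3 with 1 library left out. In mutant cells limma-voom called 1, and in wild type cells DESeq2 called 1 and the fit without the 3 libraries 2. The replicate numbers did not pair the libraries: same-numbered libraries had correlations of their deviations from the group means of -0.477 to 0.244. For mutant over wild type in fortified cells, Ptch1 was -0.17 with Xist as a covariate, -0.31 without the 3 libraries, and -0.12 to 0.68 with 1 library left out. The r of Gli1 with Hhip was 0.0017 after subtraction of group means and -0.656 to -0.306 with 1 library left out, and that of Gli1 with Ptch1 was -0.049 to 0.191 with 1 library left out.

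Without the 3 libraries, which leaves 1 fortified mutant library, mutant over wild type in fortified cells was 0.36 for Hhip and -0.53 for Gli1, and the genotype average was -0.21 for Gli1 and 0.89 for Boc. Fortified over moderate in mutant cells was -1.37 for Hhip and 1.43 for Gli1, the interaction was 0.37 for Hhip and -0.25 for Boc, and Gli3 in moderate mutant over wild type cells was 0.64. None of these passed by edgeR.

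Over all genes DESeq2 called 50 for genotype at moderate and 6 at fortified folic acid, 18 in the genotype average and 8 in the interaction, where edgeR called 0 each. For folic acid in mutant cells 1053 genes passed as reported, and 2414 with DESeq2, 5273 with limma-voom, 2814 with log2(TPM + 1), 2805 with log2(TPM + 0.1), 559 with a replicate block, 2122 with only the groups compared and 0 (without moderate mutant 1) to 2073 (without moderate wild type 1) with 1 library left out. In wild type cells 4 passed as reported, and 2 with library totals alone, 1197 with DESeq2, 17 with limma-voom, 1 with log2(TPM + 1), 13 with log2(TPM + 0.1), 80 with no low-count filter, 39 with the 1 CPM filter, 65 with a replicate block, 15 with Xist as a covariate, 0 with only the groups compared, 1298 without the 3 libraries and 1 (without moderate mutant 2) to 1012 (without moderate wild type 1) with 1 library left out. The average called 2696 genes, and 1411 (without moderate mutant 3) to 4025 (without moderate wild type 1) with 1 left out.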
